A study of Mus musculus with 6 samples.

Results

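The tissue inhibitors of metalloproteinases, *Timp1*, *Timp2*, *Timp3* and *Timp4*, and the membrane-anchored inhibitor *Reck* were compared between CD34hi and CD34lo fibroblasts of the pubertal mouse mammary gland. They were found by mapping the gene identifiers of the count table to symbols, and all 5 were present among its 27179 genes. Fibroblasts were sorted by FACS as Lin- CD24- Pdgfra+ cells from FVB/N females at 6 weeks of age (the study's methods name the strain FVB/NJ), untreated and without a transgene, and CD34 antibody staining divided them into CD34hi and CD34lo cells. Both populations were taken from each of 3 pools of 2 mice, which gave 6 bulk RNA-seq libraries, so a library averages over 2 animals and over every cell type that passed the gate. In such bulk samples, fewer cells of a type and less RNA per cell cannot be told apart.

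TIMPs are small secreted proteins that block the catalytic site of matrix metalloproteinases (MMPs), the enzymes that degrade collagen and other matrix components, and some TIMPs also inhibit ADAM and ADAMTS proteases. TIMP2 has a second role, since together with the membrane protease MMP14 it brings pro-MMP2 to the cell surface for activation, and TIMP3 differs from the others in binding tightly to the matrix. RECK is held at the cell surface by a lipid anchor, restrains several MMPs and is also part of the receptor complex for WNT7 ligands. In the mammary gland, matrix turnover around the growing ducts accompanies branching during puberty.

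Libraries held 28764779 to 52402410 counts. *Cd34*, which encodes the sorting marker, lay between 2490 and 2639 CPM (read counts relative to the TMM-scaled library size) in the CD34hi libraries and between 476 and 793 CPM in the CD34lo libraries, so the libraries followed their labels. The fibroblast markers *Col1a1*, *Col1a2*, *Dcn*, *Lum*, *Pdgfra* and *Pdpn* summed to 28590 to 36049 CPM in CD34hi and 48386 to 54286 CPM in CD34lo, and all 6 were expressed in both populations. Markers of other cells were much lower, at 32.9 to 39.7 CPM (CD34hi) and 28.3 to 39.1 CPM (CD34lo) for 6 epithelial genes and at 2.01 to 2.96 and 4.14 to 5.44 CPM for 6 macrophage genes. The 5 pericyte and smooth muscle genes all passed the test as higher in CD34lo, with sums of 87.4 to 119 CPM against 10.1 to 13.7 CPM, led by *Myh11* and *Notch3*. The 5 endothelial genes summed to 33.0 to 54.5 CPM in CD34lo against 9.30 to 27.3 CPM in CD34hi, and 2 of them passed as higher in CD34lo, or 4 with the mouse pool as a block in the fit. Other markers were higher in CD34hi: both keratinocyte genes passed, with sums of 14.3 to 19.9 CPM in CD34hi and 3.60 to 7.12 CPM in CD34lo. The 4 Schwann cell genes summed to 37.9 to 48.4 CPM in CD34hi and 15.1 to 17.9 CPM in CD34lo, of which 1 passed as higher in CD34hi and 2 as higher in CD34lo. The 5 adipocyte genes summed to 0.179 to 0.718 CPM in CD34hi and 0.482 to 1.81 CPM in CD34lo, and the 1 that was tested passed as higher in CD34lo. The part of these cells in the differences given here was not tested.

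To show the genes as genomic loci, the 250 bases before the RefSeq start of the 4 expressed members are given 5′ to 3′ on the strand of the gene (RefSeq, GRCm38.p6). Capitals mark matches to the GC box GGGCGG or the CCAAT box CCAAT on either strand, so that CCGCCC and ATTGG are the same motifs read from the other strand. They are Timp1 at chrX:20869916-20870165 (plus strand), Timp2 at chr11:118355412-118355661 (minus strand), Timp3 at chr10:86300162-86300411 (plus strand) and Reck at chr4:43875280-43875529 (plus strand).
Timp1: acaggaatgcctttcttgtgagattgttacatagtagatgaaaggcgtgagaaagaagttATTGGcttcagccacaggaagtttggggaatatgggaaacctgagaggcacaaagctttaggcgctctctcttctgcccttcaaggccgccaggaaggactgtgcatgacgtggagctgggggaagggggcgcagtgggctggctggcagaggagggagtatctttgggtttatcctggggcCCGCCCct
Timp2: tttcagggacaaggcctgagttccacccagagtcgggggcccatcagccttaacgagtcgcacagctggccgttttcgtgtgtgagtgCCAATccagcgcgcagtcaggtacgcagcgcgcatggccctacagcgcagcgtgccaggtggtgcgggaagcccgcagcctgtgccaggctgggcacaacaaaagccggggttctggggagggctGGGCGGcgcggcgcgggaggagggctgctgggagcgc
Timp3: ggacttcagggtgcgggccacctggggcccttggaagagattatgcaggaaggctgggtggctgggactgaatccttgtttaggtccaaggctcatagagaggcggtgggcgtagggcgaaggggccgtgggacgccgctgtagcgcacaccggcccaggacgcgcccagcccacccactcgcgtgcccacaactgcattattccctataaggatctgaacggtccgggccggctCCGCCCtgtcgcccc
Reck: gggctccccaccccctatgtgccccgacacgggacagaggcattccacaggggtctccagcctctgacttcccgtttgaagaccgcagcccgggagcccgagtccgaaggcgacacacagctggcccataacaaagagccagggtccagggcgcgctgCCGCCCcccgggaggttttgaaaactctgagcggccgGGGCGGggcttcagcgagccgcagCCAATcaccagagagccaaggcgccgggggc

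All 4 printed windows held a GC box, at -8 in *Timp1*, -37 in *Timp2*, -15 in *Timp3* and at both -92 and -55 in *Reck*, counted from the RefSeq start to the first base of the match. Among 32841 mouse promoter windows of the same length, 32.7% held this motif. A CCAAT box lay at -190 in *Timp1*, -162 in *Timp2* and -31 in *Reck*, and 33.9% of all windows held one. None of the 4 windows contained the AP-1 motif TGANTCA (6.75% of all windows) or the TATA box TATAAA (12.4%), each searched on both strands. The windows of the 3 members that were higher in CD34hi were rich in CpG dinucleotides, with 21 in *Timp2*, 18 in *Timp3* and 19 in *Reck*. The *Timp1* window held 6 CpG, which is also the median of all windows, and the *Timp4* window held 2 and none of these motifs. In GENCODE, *Timp2* starts at chr11:118355740 and *Timp3* at chr10:86300372. The printed *Timp2* window and the GC box of *Timp3* therefore lie inside the genes as annotated there. The motif matches describe the sequence only, and binding or methylation was not measured here.

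*Timp2*, *Timp3* and *Reck* were higher in CD34hi fibroblasts, and *Timp1* was higher in CD34lo fibroblasts. *Timp4* was close to absent in both populations. Thus 4 of 4 tested members passed the threshold of an adjusted p of 0.05, 3 as higher in CD34hi and 1 as higher in CD34lo. For comparison, 35.6% of the 15219 genes tested passed, 16.9% as higher in CD34hi and 18.7% as higher in CD34lo. The CPM ranges of the populations did not overlap for any of the 4, which was also the case for 50.1% of all tested genes (24.8% with CD34hi above CD34lo and 25.3% with CD34lo above CD34hi). The median log2 fold change of the 4 members was 0.90, against -0.0064 for all tested genes.

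**Figure D1:**
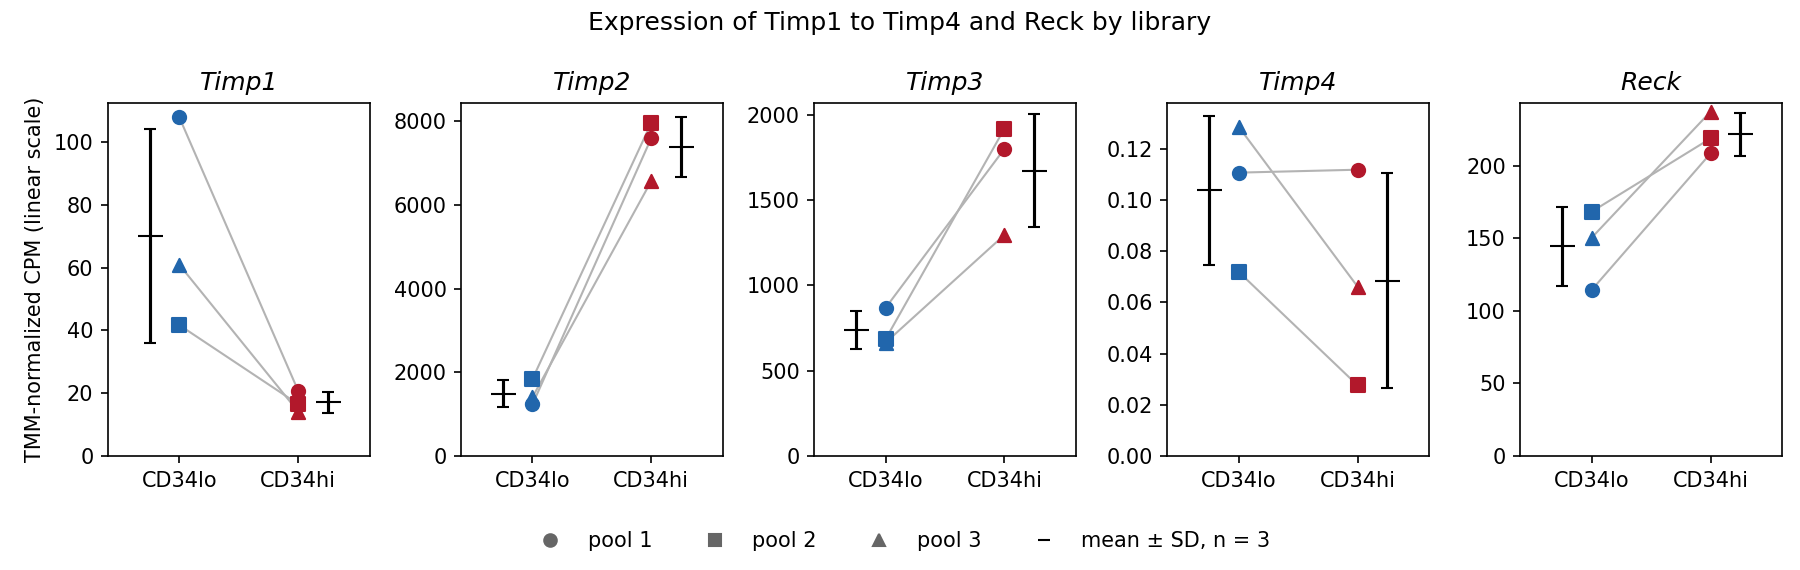
Expression of each gene in CPM with TMM-scaled library sizes (linear axes, 1 scale per gene) in CD34lo (blue) and CD34hi (red) libraries, where lines join libraries of the same mouse pool and black bars show the mean ± SD (n = 3). Lines rise from CD34lo to CD34hi in all pools for Timp2, Timp3 and Reck and fall in all pools for Timp1, whereas Timp4 stays at or below 0.129 CPM.

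*Timp2* (gene 21858, chr11:118301061-118355411, minus strand) was the most abundant member. It was measured at 7597, 7960 and 6571 CPM in the CD34hi libraries of pools 1, 2 and 3. The corresponding CD34lo libraries held 1230, 1838 and 1404 CPM. Every CD34hi library was thus well above every CD34lo library. The means were 7376 ± 720 CPM in CD34hi and 1491 ± 313 CPM in CD34lo (SD, n = 3), a 4.95-fold difference, with 6.17-, 4.33- and 4.68-fold differences within the pools. The log2 fold change was 2.31 (SE 0.20, 95% interval 1.85 to 2.76, edgeR adjusted p = 4.91e-05). Across all tested genes, 7.81% had a larger change in either direction.

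The scale of *Timp2* expression is seen in its rank. By RPKM (CPM per kilobase of exon), it was between the 14th and 19th most abundant gene of the CD34hi libraries and between the 118th and 159th of the CD34lo libraries. Its reads made up 0.648 to 0.785% of all counts in CD34hi and 0.127 to 0.178% in CD34lo. The gene *Cep295nl*, which lies between exons of *Timp2* on the same strand, had 542 counts over all libraries against 1087687 for *Timp2*, and no exon bases of the pair coincide.

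*Timp3* (gene 21859, chr10:86300412-86349505, plus strand), which encodes the matrix-bound inhibitor, was measured at 1801, 1920 and 1297 CPM in CD34hi. The CD34lo libraries held 868, 685 and 665 CPM. The highest CD34lo library lay below the lowest CD34hi library, although the gap was narrower than for *Timp2*. Means were 1673 ± 331 CPM and 739 ± 112 CPM (SD, n = 3), with folds of 2.07, 2.80 and 1.95 in the 3 pools. The log2 fold change was 1.18 (SE 0.19, 95% interval 0.74 to 1.61, edgeR adjusted p = 0.00157). *Timp3* sits inside *Syn3* on the opposite strand, and in GENCODE the exons of the pair share 1733 bases. The library kit does not mark strand, so reads in shared bases cannot be assigned to one gene. *Syn3* received 259 counts in all against 295733 for *Timp3*, which does not show how many reads in shared bases were left out of both.

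*Reck* (gene 53614, chr4:43875530-43944806, plus strand) was measured at 208, 219 and 237 CPM in CD34hi and at 114, 168 and 150 CPM in CD34lo. All CD34hi values exceeded all CD34lo values, with the smallest difference in pool 2. The means were 221 ± 14.6 CPM and 144 ± 27.4 CPM (SD, n = 3), a 1.53-fold difference, and the folds within the pools were 1.82, 1.30 and 1.58. The log2 fold change was 0.62 (SE 0.16, 95% interval 0.26 to 0.97, edgeR adjusted p = 0.0142). This was the smallest change of the 4, and it did not pass without pool 1 (log2 fold change 0.54, edgeR adjusted p = 0.0585) or without pool 3 (0.60, edgeR adjusted p = 0.0701).

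*Timp1* (gene 21857, chrX:20870166-20874737, plus strand), a soluble inhibitor that is widely inducible in connective tissue, ran in the opposite direction. It was measured at 108, 41.7 and 60.9 CPM in the CD34lo libraries of pools 1, 2 and 3. The CD34hi libraries held 20.7, 16.5 and 14.1 CPM. The CD34lo libraries differed from each other by more than the CD34hi libraries did, yet the lowest of them stood above every CD34hi library. The means were 70.1 ± 34.0 CPM in CD34lo and 17.1 ± 3.36 CPM in CD34hi (SD, n = 3), a 4.10-fold difference, and the folds within the pools were 5.20, 2.53 and 4.32. The log2 fold change was -2.04 (SE 0.32, 95% interval -2.77 to -1.30, edgeR adjusted p = 0.00136), and without the CD34lo library of pool 1 it was -1.56 (edgeR adjusted p = 0.00173). *Timp1* lies within *Syn1* on the opposite strand without shared exon bases, and *Syn1* had 385 counts against 11063 for *Timp1*. The pericyte and smooth muscle genes given above were also higher in CD34lo, as were 18.7% of all tested genes. The part of pericytes and smooth muscle cells in the level of *Timp1* was not tested.

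*Timp4* (gene 110595, chr6:115245616-115251849, minus strand) had 5, 1 and 3 counts in the CD34hi libraries and 6, 2 and 4 counts in the CD34lo libraries. These counts fell below the expression filter, and the gene was not tested. At these depths 3 counts correspond to 0.0572 to 0.104 CPM, and *Timp4* lay between 0.0276 and 0.129 CPM, so a difference between the populations was not detectable. Exons of *Timp4* share 90 bases with *Syn2* on the opposite strand, and *Syn2* had 234 counts, so the few reads of *Timp4* cannot be assigned with certainty. *Syn2* itself passed as higher in CD34lo (log2 fold change -2.25, SE 0.61, edgeR adjusted p = 0.0191), whereas *Syn1*, *Syn3* and *Cep295nl* did not pass.

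**Figure D2:**
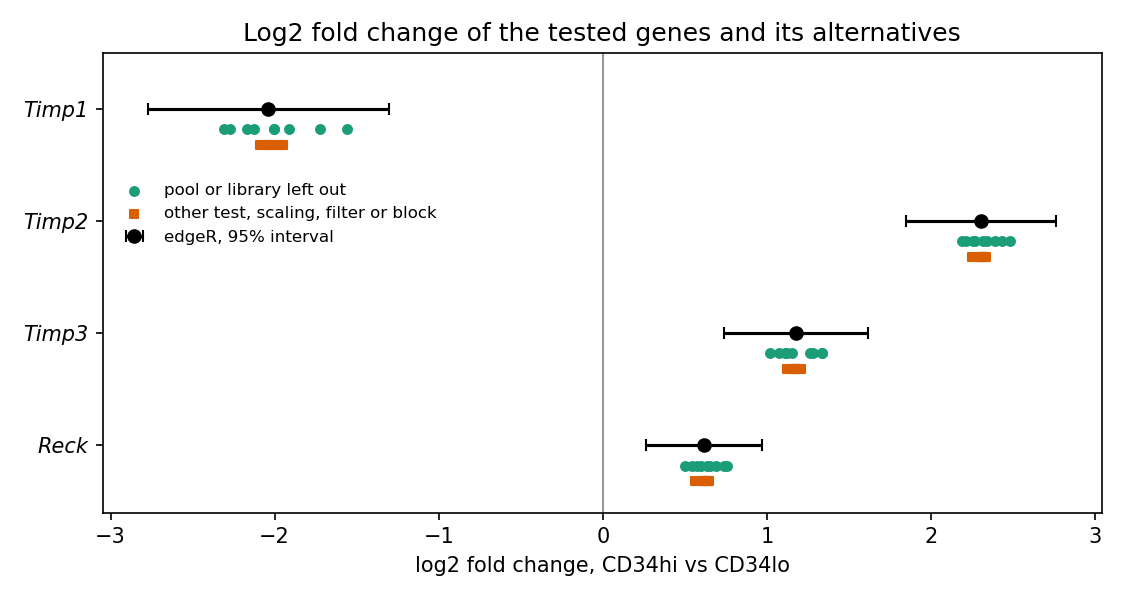
Log2 fold change of CD34hi against CD34lo for the 4 tested genes, with the 95% interval of the edgeR fit (black), the values with 1 pool or 1 library left out (green circles) and the values under another test, scaling, filter or pool term (orange squares). All points for Timp1 lie between -2.31 and -1.56, and all points for Timp2, Timp3 and Reck lie above 0, with the lowest Reck value at 0.50.

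Per length of transcript, the order of the members differed between the populations. In CD34hi it was *Timp2* (2036 ± 199 RPKM), *Timp3* (357 ± 70.7 RPKM), *Reck* (50.0 ± 3.29 RPKM), *Timp1* (19.2 ± 3.77 RPKM) and *Timp4* (0.0484 ± 0.0298 RPKM). In CD34lo it was *Timp2* (412 ± 86.5 RPKM), *Timp3* (158 ± 24.0 RPKM), *Timp1* (78.8 ± 38.2 RPKM), *Reck* (32.6 ± 6.19 RPKM) and *Timp4* (0.0733 ± 0.0205 RPKM, all SD, n = 3). Neighbors in each order did not overlap between libraries. In CD34lo, the lowest *Timp3* library (142 RPKM) lay above the highest *Timp1* library (121 RPKM), and the lowest *Timp1* library (46.8 RPKM) lay above the highest *Reck* library (38.0 RPKM). *Timp1* and *Reck* therefore exchanged places between the populations.

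The composition of the TIMP transcripts also differed. *Timp2* contributed 83.7 to 86.1% of the summed TIMP RPKM in the CD34hi libraries and 52.5 to 72.4% in the CD34lo libraries. The share of *Timp3* was 13.1 to 15.6% in CD34hi and 20.9 to 28.7% in CD34lo, a smaller share in CD34hi despite its higher level there. *Timp1* made up 0.706 to 0.929% in CD34hi and 6.68 to 18.7% in CD34lo. As a ratio of RPKM within a library, *Timp2* exceeded *Timp1* by 108 ± 15.4 in CD34hi and by 6.44 ± 4.07 in CD34lo, and it exceeded *Timp3* by 5.79 ± 0.663 and 2.68 ± 0.821 (SD, n = 3). An exact two-sided permutation test of 3 against 3 libraries cannot give a p below 0.1, so these shares and ratios are given without a test.

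To set the inhibitors beside their target proteases, the RPKM of the TIMPs and of the listed MMPs were summed in each library. Summed TIMP expression was 2506, 2626 and 2107 RPKM in CD34hi and 646, 701 and 598 RPKM in CD34lo, a 3.72-fold difference of the means. Summed MMP expression was 1486, 1492 and 1830 RPKM in CD34hi and 1632, 1819 and 1570 RPKM in CD34lo, with overlapping ranges. The ratio of the sums was 1.53 ± 0.332 in CD34hi and 0.387 ± 0.00787 in CD34lo (SD, n = 3). Thus TIMP transcripts outnumbered MMP transcripts in the CD34hi libraries, and the reverse was the case in the CD34lo libraries. These are sums of transcripts and not of protein or of inhibitory activity.

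**Figure D3:**
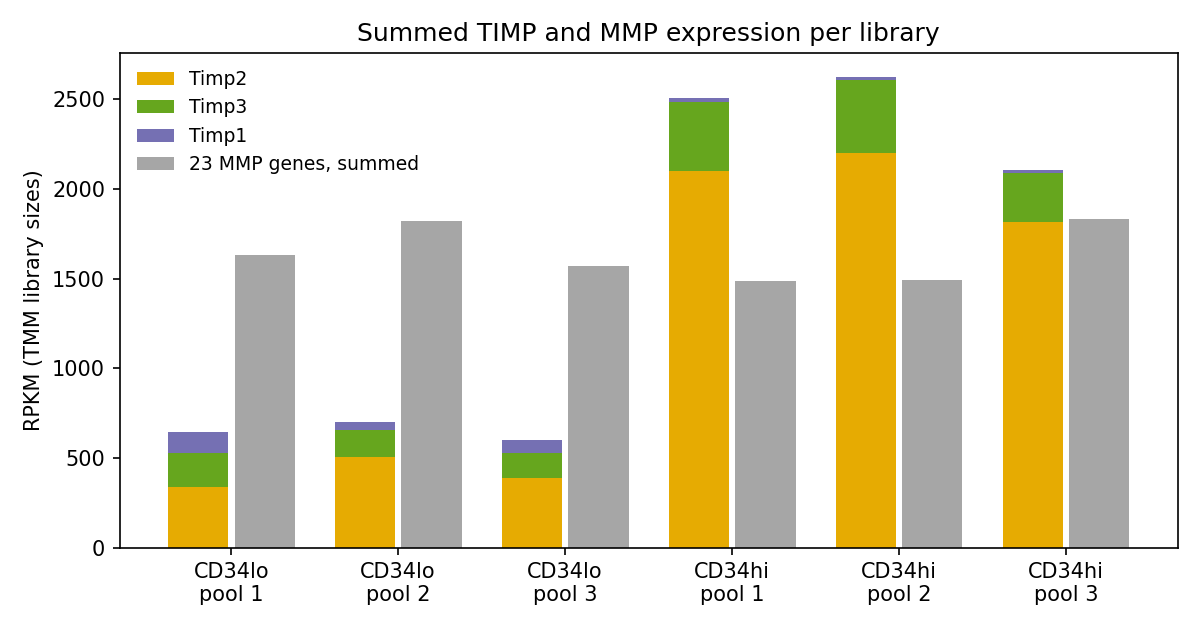
Summed RPKM of the TIMPs (stacked by gene, with Timp4 too low to be seen) beside the summed RPKM of the listed MMP genes (gray) in each library. The TIMP columns reach 2107 to 2626 RPKM in CD34hi and 598 to 701 RPKM in CD34lo, whereas the gray columns overlap between the populations.

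The 2 proteases that act with TIMP2 at the cell surface were similar between the populations. *Mmp2*, a gelatinase and the most abundant MMP, was measured at 2958, 2959 and 3397 CPM in CD34hi and at 2470, 3175 and 2425 CPM in CD34lo, and the ranges overlapped. Its log2 fold change was 0.21 (95% interval -0.17 to 0.58, edgeR adjusted p = 0.370). *Mmp14*, the membrane protease that activates pro-MMP2, was measured at 847, 866 and 1177 CPM in CD34hi and at 1150, 822 and 997 CPM in CD34lo. Its log2 fold change was -0.04 (95% interval -0.46 to 0.38, edgeR adjusted p = 0.891). The intervals leave out changes of the size seen for *Timp2*. Within libraries, the RPKM ratio of *Timp2* to *Mmp2* was 2.01 ± 0.341 in CD34hi and 0.464 ± 0.0393 in CD34lo, and that of *Timp2* to *Mmp14* was 5.68 ± 1.45 and 1.13 ± 0.430 (SD, n = 3).

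**Figure D4:**
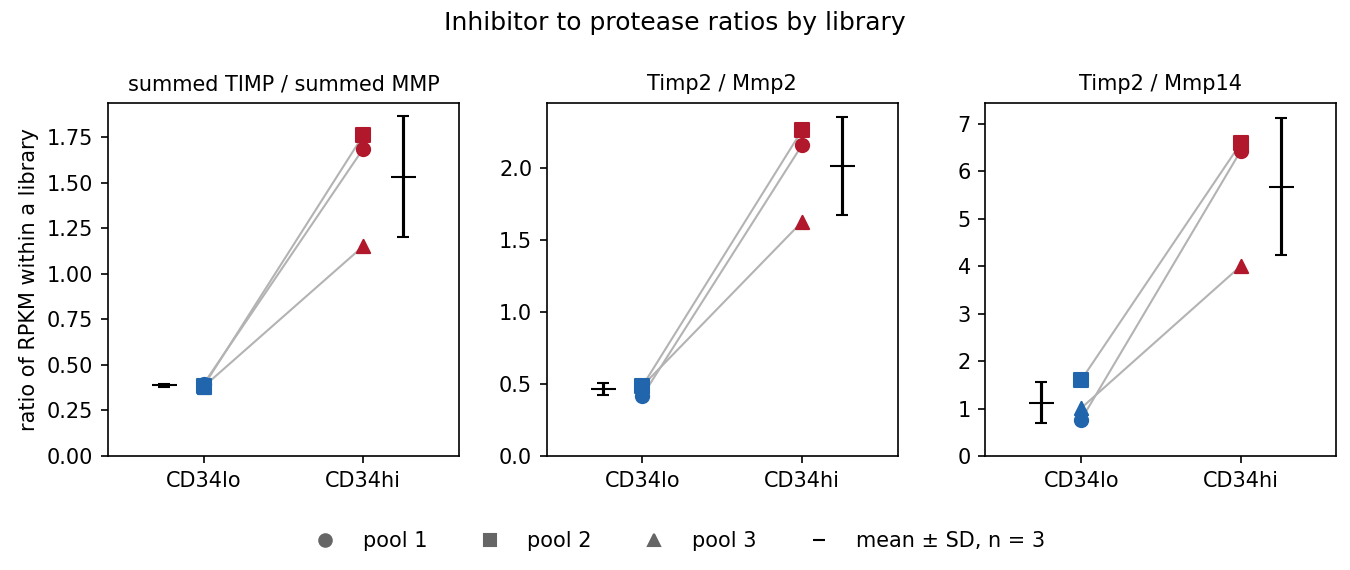
Ratios of RPKM within each library for the summed TIMPs over the summed MMPs, for Timp2 over Mmp2 and for Timp2 over Mmp14 (linear axes), where lines join libraries of the same pool and black bars show the mean ± SD (n = 3). In each panel the CD34hi libraries lie above the CD34lo libraries, and pool 3 has the lowest CD34hi ratio.

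Most of the other secreted MMPs that passed the test were higher in CD34lo. Over all tested genes, 18.7% passed as higher in CD34lo and 16.9% as higher in CD34hi. Of 16 listed secreted MMP genes 8 were tested, 5 passed as higher in CD34lo and 1 as higher in CD34hi. The median log2 fold change of the 8 was -1.75. Some of these genes entered the test only through their CD34lo counts, and when each library had to hold 10 counts or more, 6 were tested, of which 3 passed as higher in CD34lo and 1 as higher in CD34hi, with a median of -1.44. The stromelysin *Mmp3* (log2 fold change -1.71, SE 0.28) and *Mmp19* (-1.78, SE 0.18) were higher in CD34lo, and *Mmp27* was higher in CD34hi (1.76, SE 0.33). At the cell membrane, 6 of 7 listed MMPs were tested, 3 passed as higher in CD34lo and 1 as higher in CD34hi, with a median log2 fold change of -1.87. With 10 counts or more in every library, 5 were tested, and again 3 passed as higher in CD34lo and 1 as higher in CD34hi. The median was then -2.85. *Mmp15* (-2.97, SE 0.52), *Mmp16* (-2.85, SE 0.25) and *Mmp17* (-3.50, SE 0.32) were higher in CD34lo and *Mmp23* in CD34hi (1.13, SE 0.12). The first 3 were of low abundance, with means of at most 11.4 RPKM in either population, so they contributed little to the summed MMP level.

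The ADAM proteases, membrane enzymes that shed growth factors and cytokines and of which only some are sensitive to TIMP3, ran the other way. Of 9 listed genes 8 were tested, 5 were higher in CD34hi and 1 in CD34lo, with a median log2 fold change of 0.58. For comparison, 16.9% of all tested genes passed as higher in CD34hi and 18.7% as higher in CD34lo. *Adam9* (log2 fold change 1.01, SE 0.13), *Adam10* (0.89, SE 0.14) and *Adam33* (1.08, SE 0.16) were higher in CD34hi, and *Adam12* was higher in CD34lo (-3.20, SE 0.24). Among 19 listed ADAMTS genes, which encode secreted proteases of proteoglycans and procollagens, 18 were tested, 3 passed as higher in CD34hi and 8 as higher in CD34lo, with a median of -0.55. Under the same requirement of 10 counts, 17 were tested, 3 passed as higher in CD34hi and 7 as higher in CD34lo, and the median was -0.37. With the mouse pool as a block, 6 ADAMTS genes passed as higher in CD34hi and 9 as higher in CD34lo, and the ADAM genes gave 5 and 2. *Adamts16* was measured at 63.2, 77.2 and 61.7 CPM in CD34hi and at 0.590, 0.755 and 1.09 CPM in CD34lo, the largest difference in the list (log2 fold change 6.41, SE 0.23). The aggrecanase *Adamts5* (2.00, SE 0.31) and *Adamts19* (0.57, SE 0.18) were also higher in CD34hi, and *Adamts17* (-3.31, SE 0.30), *Adamts7* (-2.73, SE 0.21) and *Adamts3* (-2.69, SE 0.23) were higher in CD34lo. *Adamts1*, the most abundant of the family by RPKM, did not pass (0.12, 95% interval -0.28 to 0.52).

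**Figure D5:**
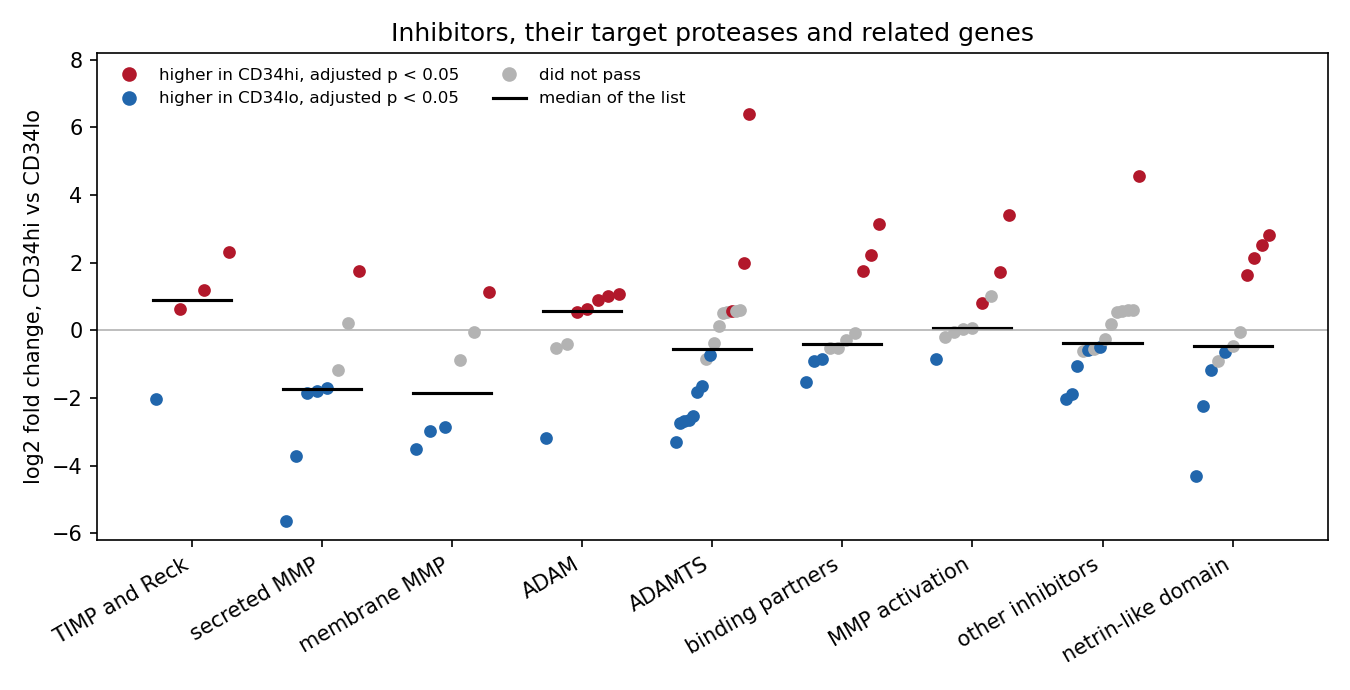
Log2 fold change of CD34hi against CD34lo for every tested gene of each list, colored by whether it passed an adjusted p of 0.05 (red higher in CD34hi, blue higher in CD34lo, gray did not pass), with the list median as a black line. The medians of both MMP lists lie below -1.7, and that of the ADAM list lies at 0.58.

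Binding partners of the inhibitors were mixed, with 3 of 10 tested genes higher in CD34hi and 3 higher in CD34lo (16.9% and 18.7% of all tested genes). The proteins known to bind TIMP1 include the tetraspanin CD63 and integrin beta 1. *Cd63* was higher in CD34lo (log2 fold change -0.91, SE 0.13, edgeR adjusted p = 0.000648), as was *Timp1*, while *Itgb1* (-0.09, 95% interval -0.40 to 0.23) and *Cd74* (-0.53, 95% interval -1.63 to 0.57) did not pass. *Itga3*, which encodes an integrin subunit that binds TIMP2, was higher in CD34lo (-1.52, SE 0.32) but did not exceed 2.91 CPM in any library. Among genes for proteins that can bind TIMP3, the matrix protein gene *Efemp1* (1.76, SE 0.17), the VEGF receptor gene *Kdr* (3.14, SE 0.31) and the angiotensin receptor gene *Agtr2* (2.23, SE 0.43) were higher in CD34hi. *Kdr* is also an endothelial gene, and the part of endothelial cells, whose marker sums are given above, in its level was not tested. *Lrp1*, the endocytic receptor that clears MMPs and TIMPs, TIMP3 among them, did not pass (-0.29, 95% interval -0.67 to 0.09).

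RECK acts with the adhesion receptor ADGRA2 in WNT7 signaling, and the genes of that complex did not follow one direction. *Adgra2* was measured at 147, 160 and 152 CPM in CD34hi and at 291, 252 and 292 CPM in CD34lo. Its log2 fold change was -0.86 (SE 0.12, edgeR adjusted p = 0.000594), opposite in sign to that of *Reck*. The ligand gene *Wnt7b* did not exceed 0.396 CPM in any library and did not pass (-0.53, 95% interval -1.88 to 0.83), and *Wnt7a* had 2 counts in all and was not tested.

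Upstream of the MMPs, 9 of 10 listed genes whose products activate or induce MMPs were tested. Of these 3 were higher in CD34hi and 1 in CD34lo, with a median log2 fold change of 0.06. Thus 44.4% of the tested genes of this list passed, against 35.6% of all tested genes. The plasminogen activator genes *Plau* (1.73, SE 0.13) and *Plat* (0.81, SE 0.13) and the proprotein convertase gene *Pcsk6* (3.41, SE 0.29) were higher in CD34hi, and *Pcsk5* was higher in CD34lo (-0.84, SE 0.13). Of the inhibitors outside the TIMP family, 14 of 15 were tested, 1 was higher in CD34hi and 5 in CD34lo, with a median of -0.37. These calls made up 42.9% of the 14, also near the share of all tested genes. With the mouse pool as a block 4 were higher in CD34hi and 6 in CD34lo. The cysteine protease inhibitor gene *Cst3* (-1.05, SE 0.16) and the collagen chaperone gene *Serpinh1* (-0.58, SE 0.14) were higher in CD34lo. *Pi16*, which the study uses as a marker of a fibroblast cluster, was measured at 4862, 5297 and 5108 CPM in CD34hi and at 176, 270 and 203 CPM in CD34lo (4.56, SE 0.21). *Serping1*, the complement C1 inhibitor, did not pass (0.56, 95% interval 0.06 to 1.06 without adjustment, edgeR adjusted p = 0.0809), but passed as higher in CD34hi with the pool as a block (0.58, edgeR adjusted p = 0.0288).

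TIMPs carry a netrin-like domain, and 11 other genes with this domain were all tested, of which 4 were higher in CD34hi and 4 in CD34lo, with a median log2 fold change of -0.47. When each library had to hold 10 counts or more, 9 were tested, of which 4 were higher in CD34hi and 2 in CD34lo, and the median was -0.04. The WNT antagonist gene *Sfrp4* (2.52, SE 0.21), the basement membrane gene *Ntn4* (2.81, SE 0.22) and *Pcolce2* (2.14, SE 0.23), an enhancer of procollagen processing, were higher in CD34hi. *Sfrp1* (-1.17, SE 0.19) and *Pcolce* (-0.65, SE 0.18) were higher in CD34lo.

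Among 4630 genes with a mean log2 CPM of at least 5, those whose level followed each member most closely over the 6 libraries were listed by Pearson's r of log2 CPM. For *Timp2* these were *Meg3* (r = 1.00), *Naaa* (0.999) and *Ildr2* (0.999), and for *Timp3* they were *Abl2* (0.998), *Itga9* (0.998) and *Rab5c* (0.996). For *Reck* they were *Prelp* (0.996), *Npc1* (0.996) and *Rbm33* (0.995), and for *Timp1* they were *Tet2* (0.995), *Tox4* (0.995) and *Adprh* (0.993). The 6 points share 3 pools and fall into 2 populations, so a difference between the populations can by itself give a high r, and the values are descriptive.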

How the data were processed

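RNA-seq libraries were made from 3 CD34hi and 3 CD34lo samples, grouped by the labels. Per the labels and methods, the authors prepared polyA RNA with the TruSeq RNA v2 kit and sequenced on a NextSeq instrument. The authors aligned reads to GRCm38/mm10, counted them per gene with Rsubread and deposited whole-number counts without normalization. The annotation, strand setting and treatment of multi-mapping reads are not given in the sources used here. Symbols came from a RefSeq gene table (25275 of 27179 identifiers), and no row without a gene was present.

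The tests were run with edgeR 4.0.16 under R 4.3.3: filterByExpr by population (15219 genes), TMM, and the quasi-likelihood test of CD34hi against CD34lo with Benjamini-Hochberg adjustment over all tested genes (threshold 0.05). The SE was obtained from each gene's log2 fold change and F statistic (size over root F). RPKM used the exon lengths in the table, and log2 CPM a prior count of 2. The common coefficient of variation was 19.7%, and it was 14.9% with the mouse pool as a block. On simulated counts for this comparison (15056 genes tested), 65 of 93 genes changed by 1 log2 unit and 104 of 107 changed by 2 were recovered. Of 176 calls 7 were false. No other gene was changed, and every gene was given the common dispersion without a pool effect. In the data 35.6% of the tested genes passed, so these rates need not hold there.

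Libraries of the same number come from the same mice. Their deviations from the population means correlated at r = 0.279, 0.0844 and 0.243 in pools 1, 2 and 3. The study's methods name no pool term, so the main fit, with its SE, intervals and adjusted p, left the pairing out. The pool was a block only in alternatives. The others were limma-voom (limma 3.58.1), DESeq2 1.42.0, RLE and upper-quartile scaling, other filters, a threshold of 0.01 and leaving out each pool or library.

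The members and gene lists were chosen with earlier results of these data known. Named genes are the 5 members, all binding partners and overlapping genes, and from each other list up to 3 rises and 3 falls of largest size with mean log2 CPM of at least 1, plus the most abundant by RPKM. One gene that this rule names is not reported here. For each tested member, the 3 genes of highest correlation are named. Markers named beside them check the sort.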

Additional observations from a re-analysis of the deposited data

How the results depend on the processing

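*Timp1*, *Timp2* and *Timp3* kept their direction and passed an adjusted p of 0.05 (0.01 where that was the threshold) in all 18 alternatives. Their log2 fold changes ranged from -2.31 to -1.56, from 2.19 to 2.48 and from 1.02 to 1.34. *Reck* kept its direction in all 18, and its calls fell away in 3: with leave-one-out its log2 fold change ranged from 0.50 to 0.75 (edgeR adjusted p from 0.00914 to 0.0701), and it missed a threshold of 0.01 (0.62, edgeR adjusted p = 0.0142). The cause was not tested. With the replicate block in edgeR, the pairing of libraries by pool gave log2 fold changes of -1.95, 2.32, 1.17 and 0.63 for *Timp1*, *Timp2*, *Timp3* and *Reck*. Their edgeR adjusted p values with the block were 2.80e-05, 3.89e-06, 0.00022 and 0.00388. The block raised the count of inhibitors outside the TIMP family that passed from 6 to 10, in edgeR and in limma-voom alike (9 in DESeq2 without the block), and that of endothelial markers from 2 to 4 in edgeR. It also raised the ADAMTS count from 11 to 15 (16 in limma-voom), and in edgeR those of the secreted MMPs and of the ADAMs from 6 to 7 each. Over all 15219 tested genes the block raised the calls from 5411 to 6161 in edgeR and to 6418 in limma-voom. Among the members and the genes named from the lists of proteases, partners, activators and inhibitors, *Serping1* alone changed its call with the block in edgeR. The summed TIMP difference was 3.94-fold with CPM in place of RPKM, which weights long transcripts more, and 3.58-fold with upper-quartile scaling. *Timp4* was tested only without the filter on low counts (log2 fold change -0.54, edgeR adjusted p = 0.728), where depth limits it. Each population has 3 libraries, and a library pools 2 mice.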
